A study of Mus musculus with 6 samples.

Results

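The 10 genes described here encode proteins of the epithelial tight junction: the claudins Cldn1, Cldn2, Cldn3, Cldn4, Cldn7, Cldn8, Cldn15 and Cldn23, the transmembrane protein occludin (Ocln) and the scaffold protein ZO-1 (Tjp1). They were chosen by name from the 23462 mouse genes that could be named on the array, with earlier results of these data known. Every probe of each gene was taken. These were 12 probes, 1 for each of 8 genes and several for Cldn2 and Tjp1.

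Colon RNA of 6 male mice was hybridised to single-colour Agilent arrays, 1 per animal. The control group held 3 mice labelled as controls, and the knockout group held 3 mice labelled as Islr knockouts. Per the sample source, every mouse of both groups had drunk 3.5% dextran sulfate sodium (DSS) for 5 days and then recovered for 1 day, whereas the treatment field of the same labels states none. DSS injures the colonic epithelium and is used as a model of colitis, and Islr encodes a secreted or membrane-bound protein of stromal cells. The strain, the age and the way the knockout was made were not given in the sources used here, and the series' design text mentions a flow separation without naming the cells. Islr itself gave intensities of 18838, 16768 and 15157 in controls 1, 2 and 3 and 1862, 3057 and 2327 in knockouts 1, 2 and 3, so no knockout array reached a control array.

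Tight junctions seal the space between neighbouring epithelial cells and set which ions and solutes pass between them. Claudins form the strands: some mainly seal, while others, such as Cldn2 and Cldn15, form pores that let small cations and water through. Ocln lies in the same strands, and Tjp1 ties the strands to the actin cytoskeleton. In the colon these genes are expressed chiefly by epithelial cells, and surface cells and crypt cells use different sets of claudins.

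The members' promoters were read from RefSeq (assembly GRCm38.p6), each window running from 250 bases before to 50 bases after a transcription start. A promoter was listed for 8 of the 10 genes, with 10 promoters in all. None was listed for Cldn8 and Cldn23, which were therefore not searched. The E-box letters CAGGTG, or CACCTG on the other strand, which are the letters that transcription factors of the Snail and Zeb families are known to bind, were found in 5 of these 10 promoters. They belonged to 4 genes, Cldn3, Cldn4, Cldn7 and Ocln, and of 32851 mouse promoters of the same length 20.2% held them. The 4 sequences below show where the letters lie in 1 promoter of each gene, with the E-box in capitals, since Cldn3, Cldn7 and Ocln read higher on every knockout array than on every control array and Cldn4, the neighbour of Cldn3, did not.
Cldn3, chr5:134985964-134986263, plus strand: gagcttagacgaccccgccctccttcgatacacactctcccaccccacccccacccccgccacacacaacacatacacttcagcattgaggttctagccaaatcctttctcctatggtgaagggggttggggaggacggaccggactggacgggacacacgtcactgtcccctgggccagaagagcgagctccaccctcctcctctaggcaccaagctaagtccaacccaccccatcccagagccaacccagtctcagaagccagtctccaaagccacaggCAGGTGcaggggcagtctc
Cldn4, chr5:134946885-134947184, minus strand: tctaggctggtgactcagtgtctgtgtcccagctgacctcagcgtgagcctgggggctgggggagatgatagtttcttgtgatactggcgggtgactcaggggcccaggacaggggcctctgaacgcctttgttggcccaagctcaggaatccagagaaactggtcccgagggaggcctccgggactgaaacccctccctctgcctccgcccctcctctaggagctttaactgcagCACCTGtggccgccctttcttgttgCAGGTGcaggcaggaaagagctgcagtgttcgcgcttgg
Cldn7, second listed start, chr11:69965171-69965470, plus strand: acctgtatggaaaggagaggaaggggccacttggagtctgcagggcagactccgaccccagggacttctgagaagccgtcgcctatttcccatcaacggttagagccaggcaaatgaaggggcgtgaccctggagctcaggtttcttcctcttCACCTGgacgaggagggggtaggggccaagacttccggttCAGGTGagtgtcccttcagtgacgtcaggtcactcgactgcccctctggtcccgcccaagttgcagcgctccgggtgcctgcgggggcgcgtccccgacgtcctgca
Ocln, second listed start, chr13:100552449-100552748, minus strand: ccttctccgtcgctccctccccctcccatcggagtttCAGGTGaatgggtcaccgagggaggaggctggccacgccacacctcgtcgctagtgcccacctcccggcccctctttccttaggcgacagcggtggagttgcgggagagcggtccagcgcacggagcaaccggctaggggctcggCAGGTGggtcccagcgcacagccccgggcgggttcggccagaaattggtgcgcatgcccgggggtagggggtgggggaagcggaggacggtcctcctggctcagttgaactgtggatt

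Counted from 1 at the 5′ end of each window, the letters began at base 282 in the Cldn3 promoter, at bases 237 and 262 in the Cldn4 promoter, at bases 154 and 194 in the second Cldn7 promoter and at bases 38 and 183 in the second Ocln promoter. The windows of the 2 Ocln starts overlap, and the match at base 38 is also the one in the first window. The first Cldn7 promoter held no match. A further 4 motifs were searched on both strands. The Sp1 letters GGGCGG were in 35.7% of all promoters of this length. The TATA-box letters TATAAA were in 13.6% of them. The letters TTTATNG, bound by Cdx factors, were in 10.9%, and the letters CAAAGTCCA, bound by Hnf4 factors, in 0.475%. Among the members the Sp1 letters were found in 8 of the 10 windows, the TATA letters were found in the Cldn2 promoter alone, and neither the Cdx nor the Hnf4 letters were found in any window. These matches are letters in a window and were not set against any measurement of binding.

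Levels are given as log2 signals relative to the 75th percentile of the same array, so that 0 is that percentile, and differences are knockout minus control on this log2 scale. Signals of different probes were not read as RNA levels of different genes. They were used to choose a gene's brightest probe and to order markers by signal. In the summed marker levels, the brightest probes weigh most. Across the series, 69.4% to 75.4% of an array's spots were well above background. Between 3.26% and 16.0% of an array's spots, and between 10.7% and 56.8% of its brightest 10%, carried an outlier mark of the scanner software. Marked spots were treated as missing, which touched the members on the knockout side alone: 6 of their 12 probes had a marked spot on a knockout array and 0 on a control array. All 3 control arrays lay in the first row of the slide and all 3 knockout arrays in the second, so slide row and genotype cannot be told apart.

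Of the 10 genes, 9 were well above background on all 6 arrays and 8 could be tested with the marked spots missing. None of the 8 passed limma's test at an adjusted p under 0.05 over all 35351 tested probes, of which 3.97% passed, 1.55% higher and 2.42% lower in the knockouts. Of named genes, each at its brightest tested probe, 3.82% passed. At an unadjusted p under 0.05 there were 2, Cldn1 (lower) and Cldn3 (higher), where 28.2% of named genes stood. A difference above 1 was seen for 4 of the 8 (Cldn3, Cldn7, Cldn23 and Ocln), against 7.86% of named genes. The members' median difference was 0.88 with 7 of 8 above 0, against a median of 0.01 and 51.2% above 0 over the 16451 named genes tested. That median was 0.54 without control 2, and 0.14 and -0.02 without knockouts 2 and 3, where Cldn7, Cldn23, Ocln and Tjp1 had too few usable values to enter it. With the marked spots kept, Cldn8 could be tested as well and was the 1 of 9 members that passed, where 4.85% of probes and 4.47% of named genes did. With limma's array weights, which give less weight to arrays that vary more, Cldn3, Cldn7, Cldn23 and Ocln passed at adjusted p between 0.0410 and 0.0499, and so did 23% of all probes.

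**Figure D1:**
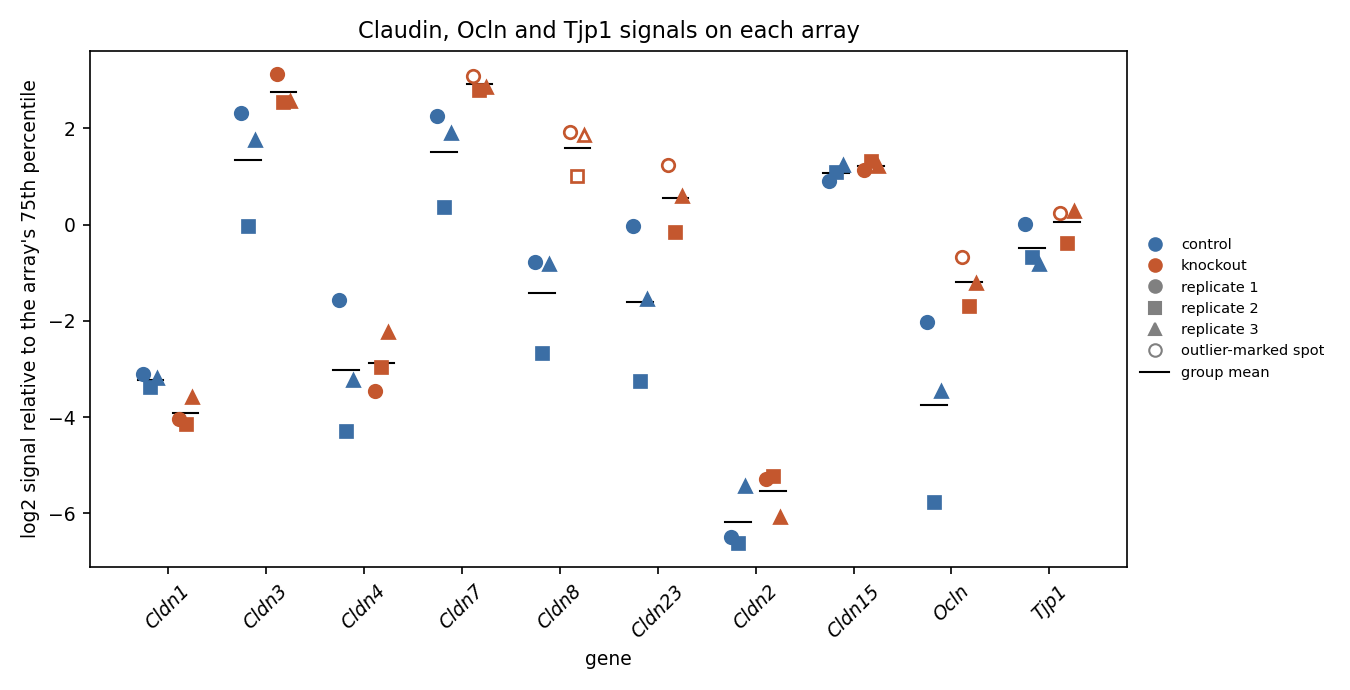
Log2 signal of each gene on each of the 6 arrays, relative to the 75th percentile of the array (vertical axis), for control (blue) and knockout (orange) mice, with the animal given by the shape of the point; open points are outlier-marked spots, plotted as measured, and black bars are group means over all 3 points. Control 2 (blue square) lies lowest for Cldn3, Cldn7, Cldn8, Cldn23 and Ocln, Cldn15 spans a narrow range, and the Cldn2 probe was well above background on 1 array of each group; levels of different genes rest on different probes and are not comparable.

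The claudin with the largest difference was Cldn8, a sealing claudin of the distal colon that restricts the passage of sodium between cells. Its signals were -0.78, -2.67 and -0.82 in controls 1, 2 and 3 and 1.92, 1.01 and 1.85 in knockouts 1, 2 and 3, which as intensities were 3704, 1117 and 3716 against 18629, 11730 and 20820. Every knockout array lay above every control array. All 3 knockout spots carried an outlier mark, so the gene had no test with marked spots missing. With the spots kept, the mean rose from -1.42 ± 1.08 to 1.59 ± 0.51 (SD, n = 3 each), a difference of 3.02 (SE 0.55, 95% interval 1.71 to 4.32) or 8.09-fold, with an adjusted p of 0.0385 by limma. The call was lost when any array except control 1 was left out: the adjusted p was then 0.0535 without control 2, 0.0814 without control 3, and 0.108, 0.0507 and 0.109 without knockouts 1, 2 and 3, with differences of 2.39 to 3.32.

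Cldn7, which in the intestine lies along the lateral membrane as well as in the junction, had signals of 2.26, 0.36 and 1.90 in the controls and 3.09, 2.80 and 2.85 in the knockouts, the first of which was outlier-marked. Control 2 stood well below the other 5 arrays, and the knockout arrays lay within 0.3 of each other. The group means were 1.51 ± 1.01 (SD, n = 3) and, without the marked spot, 2.82 ± 0.030 (SD, n = 2). The difference of 1.32 (SE 0.57, 95% interval -0.10 to 2.73), or 2.49-fold, did not pass the test (adjusted p = 0.210), nor did the 1.40 obtained with the spot kept (adjusted p = 0.117). Without control 2 the difference was 0.74.

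Cldn3, a sealing claudin found along the whole intestine, had no marked spot. It read 2.32, -0.03 and 1.75 in the controls and 3.12, 2.55 and 2.57 in the knockouts, so the groups did not overlap and control 2 was again the low array. The control mean was 1.35 ± 1.22 and the knockout mean 2.75 ± 0.32 (SD, n = 3 each). The difference was 1.40 (SE 0.58, 95% interval 0.02 to 2.79), or 2.65-fold, with an adjusted p of 0.182. Without control 2 it was 0.72, and without control 1 it was 1.89.

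Cldn23, a claudin of the colonic surface epithelium, read -0.03, -3.25 and -1.55 in the controls and 1.23 (outlier-marked), -0.16 and 0.59 in the knockouts. Control 1 lay within the range of the knockouts, and the 3 controls spread over more than 3 log2 units. The means were -1.61 ± 1.61 (SD, n = 3) and 0.22 ± 0.53 (SD, n = 2), a difference of 1.83 (SE 0.91, 95% interval -0.44 to 4.09, adjusted p = 0.263). With the marked spot kept the difference was 2.16 (adjusted p = 0.139), and without control 2 it was 1.01.

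Cldn4, whose gene neighbours Cldn3 on chromosome 5, did not share the pattern of Cldn3. Its signals were -1.56, -4.28 and -3.22 in the controls and -3.47, -2.95 and -2.23 in the knockouts, so that a control array was both the highest and the lowest of the 6. The means of -3.02 ± 1.37 and -2.88 ± 0.62 (SD, n = 3 each) differed by 0.14 (SE 0.69, 95% interval -1.50 to 1.78, adjusted p = 0.918). The interval is wide enough to hold a difference of the size seen for Cldn3 in either direction, and the sign turned when control 2 (-0.49) or knockout 3 (-0.19) was left out.

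Cldn1, a sealing claudin that in the gut is scarce next to its level in skin, was the one member that read lower in the knockouts. Its signals were -3.10, -3.38 and -3.19 in the controls and -4.03, -4.15 and -3.58 in the knockouts, and every knockout array lay below every control array. The means were -3.22 ± 0.14 and -3.92 ± 0.30 (SD, n = 3 each), a difference of -0.70 (SE 0.20, 95% interval -1.17 to -0.22), or 1.62-fold, with an adjusted p of 0.0894. The difference stayed below 0 in each fit that left out an array, between -0.87 and -0.58.

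Of the pore-forming claudins, Cldn15, the cation pore of the small intestine and colon, had the narrowest range over the 6 arrays of any measured member: 0.90, 1.10 and 1.23 in the controls and 1.13, 1.31 and 1.22 in the knockouts. The means of 1.08 ± 0.17 and 1.22 ± 0.089 (SD, n = 3 each) differed by 0.15 (SE 0.16, 95% interval -0.23 to 0.52, adjusted p = 0.586), an interval whose upper bound lies below the estimates for Cldn3, Cldn7, Cldn8, Cldn23 and Ocln. Control 2, the low array of those 5 genes, was the middle control for Cldn15.

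Cldn2, the cation and water pore of crypt cells, was at the edge of detection. Its first probe was not well above background on any array, with intensities of 95.2, 121 and 114 in the controls and 50.9, 102 and 111 in the knockouts. The other probe cleared background on a single array of each group, with intensities of 70.3, 72.1 and 151 in the controls and 125, 156 and 85.1 in the knockouts. The groups overlapped at both probes, and no test or fold was computed.

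Ocln had the largest difference among the members that could be tested with marked spots missing. It read -2.03, -5.77 and -3.45 in the controls and -0.67 (outlier-marked), -1.68 and -1.21 in the knockouts. All knockout arrays lay above all control arrays, and the distance between controls 1 and 2 was larger than that between the group means. The means were -3.75 ± 1.89 (SD, n = 3) and -1.45 ± 0.34 (SD, n = 2), a difference of 2.30 (SE 1.05, 95% interval -0.29 to 4.90), or 4.94-fold, with an adjusted p of 0.227. With the spot kept the difference was 2.56 (SE 0.88, adjusted p = 0.122), and with marked spots missing it was 1.29 without control 2 and 3.16 without control 1.

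The differences of Tjp1 were small at both of its probes. The probe that could be tested read 0.02, -0.68 and -0.82 in the controls and 0.24 (outlier-marked), -0.37 and 0.28 in the knockouts, and the groups overlapped. The difference was 0.45 (SE 0.34, 95% interval -0.40 to 1.29, adjusted p = 0.448). The brighter probe read 1.65, 1.24 and 1.49 against 1.98, 1.62 and 2.04, with all 3 knockout spots marked. With those spots kept it differed by 0.42 (SE 0.19, adjusted p = 0.208).

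**Figure D2:**
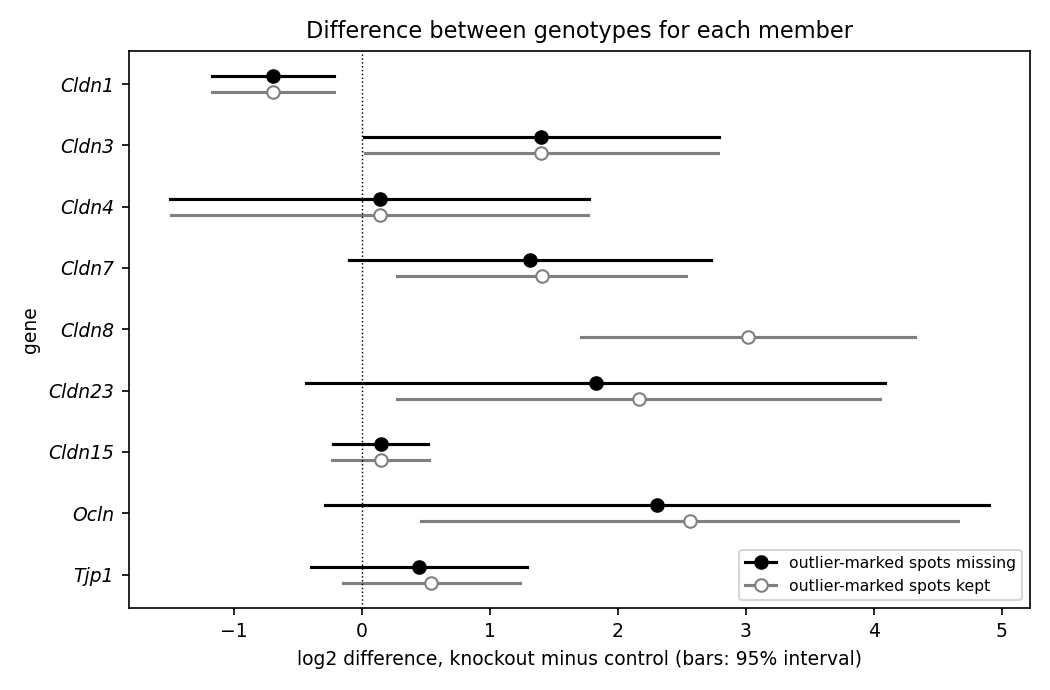
Difference between genotypes (horizontal axis, knockout minus control on the log2 scale) for each gene that could be tested, with bars for the 95% interval of limma; black points have outlier-marked spots missing and open grey points have them kept. Cldn8 has no black point because its 3 knockout spots were marked. Its interval with the spots kept, 1.71 to 4.32, lies above 0. So do the intervals of Cldn3 and, only with spots kept, those of Cldn7, Cldn23 and Ocln. The interval of Cldn1 lies below 0, and Cldn15 has the shortest interval.

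With marked spots kept and Tjp1 taken at its brighter probe, the 3 knockout and 3 control values did not overlap for 5 of the 9 measured members. Of all 40172 probes that passed the background rule, 34.9% did not overlap in this way. In 4 of the 5 (Cldn3, Cldn7, Cldn8 and Ocln) the knockouts were higher, where 17.3% of probes were. With 3 arrays on each side, the lowest two-sided p of an exact permutation test is 0.1. The order of the control animals was also shared: in 8 of the 9 genes, all but Cldn15, control 1 was the highest, control 3 the next and control 2 the lowest of the controls, an order that 17.2% of probes had. At the dimmer probe of Tjp1 the controls read 0.02, -0.68 and -0.82, so control 3 was the lowest there. Nothing in the labels says whether the animals shared a litter or cage, and the p-values measure the spread between these 6 samples.

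Because tight junction genes are chiefly epithelial, their levels were set beside 9 markers of colon epithelium (Epcam, Krt8, Krt18, Krt19, Vil1, Cdh1, Cdx1, Cdx2 and Lgals4). Epcam, Cdx1 and Cdx2 are also in the list of regulators described below, and Cdh1 in that of adherens junction genes, so these lists overlap. All 9 were well above background on every array. Their mean log2 level was 2.45, 0.44 and 1.99 in controls 1, 2 and 3 and 3.06, 2.72 and 2.67 in knockouts 1, 2 and 3. The controls thus stood in the order seen for 8 of the members, and all knockouts lay above all controls. The summed linear level of the 9 markers, in multiples of the array's 75th percentile, was 19.3 to 56.3 in controls and 65.6 to 86.6 in knockouts. Of the 7 markers that could be tested all were above 0, with a median of 1.16 (0.54 without control 2 and 1.95 without knockout 3), and 0 passed the test. Taken from the brightest down, these markers differed by 0.68 (Krt8), 0.56 (Lgals4), 0.85 (Krt19) and 1.33 (Krt18). Vil1 (1.16), Cdx1 (1.98) and Cdx2 (1.69) followed. The 10 markers of surface colonocytes had summed levels of 13.2 to 51.5 against 64.7 to 86.7, a median of 1.58, all 10 above 0 and 0 called. In RNA taken from many cells together, fewer cells of a type and less RNA per cell cannot be told apart. The part of these markers in the members' differences was not tested.

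Markers of several other cell types read lower in the knockouts. The summed level of 8 endothelial markers was 13.6 to 14.8 in controls and 4.30 to 9.37 in knockouts, that of 7 fibroblast markers 37.1 to 44.2 against 23.4 to 31.8, that of 7 markers of other leukocytes 16.8 to 18.2 against 11.3 to 14.7, and that of 8 neutrophil markers 24.0 to 25.5 against 17.3 to 19.3. Of these, 5 of 6 tested neutrophil markers and 1 of 7 fibroblast markers (Pdgfrb) passed the test, all lower in knockouts, and none of the endothelial or other leukocyte markers did. The other 3 neutrophil markers, named here after their values were seen, read higher in knockouts: Csf3r by 0.17 (adjusted p = 0.483) and, with marked spots kept, Ly6g by 0.78 (adjusted p = 0.106) and Stfa2l1 by 1.45 (adjusted p = 0.0781). Smooth muscle markers summed to 45.1 to 56.3 against 62.4 to 72.6, and markers of squamous epithelium, which a sample near the anus could hold, to 9.15 to 11.5 against 11.4 to 12.8, with none called. Most of the squamous sum came from Trp63, which differed by 0.14 (adjusted p = 0.628), and the list's median difference was 0.40. All endothelial, fibroblast, leukocyte and smooth muscle markers were well above background on every array, as were 7 of 8 neutrophil and 7 of 11 squamous markers. The part of these cell types in the results was not tested.

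Setting each member against the mean of the epithelial markers on the same array, with marked spots kept, gave differences of both signs. Cldn3 and Cldn7 then differed by 0.21 each between the genotypes. The SE was 0.72 for every member in this fit. Its intervals and adjusted p thus rest on a spread common to all tested probes, not on each gene's own. Control 2 was no longer the low array for Cldn7, which lay at -0.18, -0.08 and -0.10 in the controls and 0.03, 0.08 and 0.18 in the knockouts. Cldn8 was at -3.22, -3.11 and -2.81 in the controls and -1.14, -1.71 and -0.82 in the knockouts, a difference of 1.83 (95% interval 0.41 to 3.24, adjusted p = 0.0877), and its groups did not overlap, nor did those of Ocln, Cldn7 and Cldn1. Ocln differed by 1.37 (adjusted p = 0.163) and Cldn23 by 0.97 (adjusted p = 0.254). Cldn4 (-1.05), Cldn15 (-1.05), Tjp1 at its brighter probe (-0.77) and Cldn1 (-1.89, adjusted p = 0.0785) read lower in the knockouts on this scale. These values are relative to a shift: the median of all tested probes moved to -1.18, and 94.7% of probes were lower in the knockouts. In this scaling, chosen after the data were seen, 7.67% of probes were called and 51.5% had groups that did not overlap. The brightest markers had the smallest differences, and the part of this in the scaled values was not tested.

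**Figure D3:**
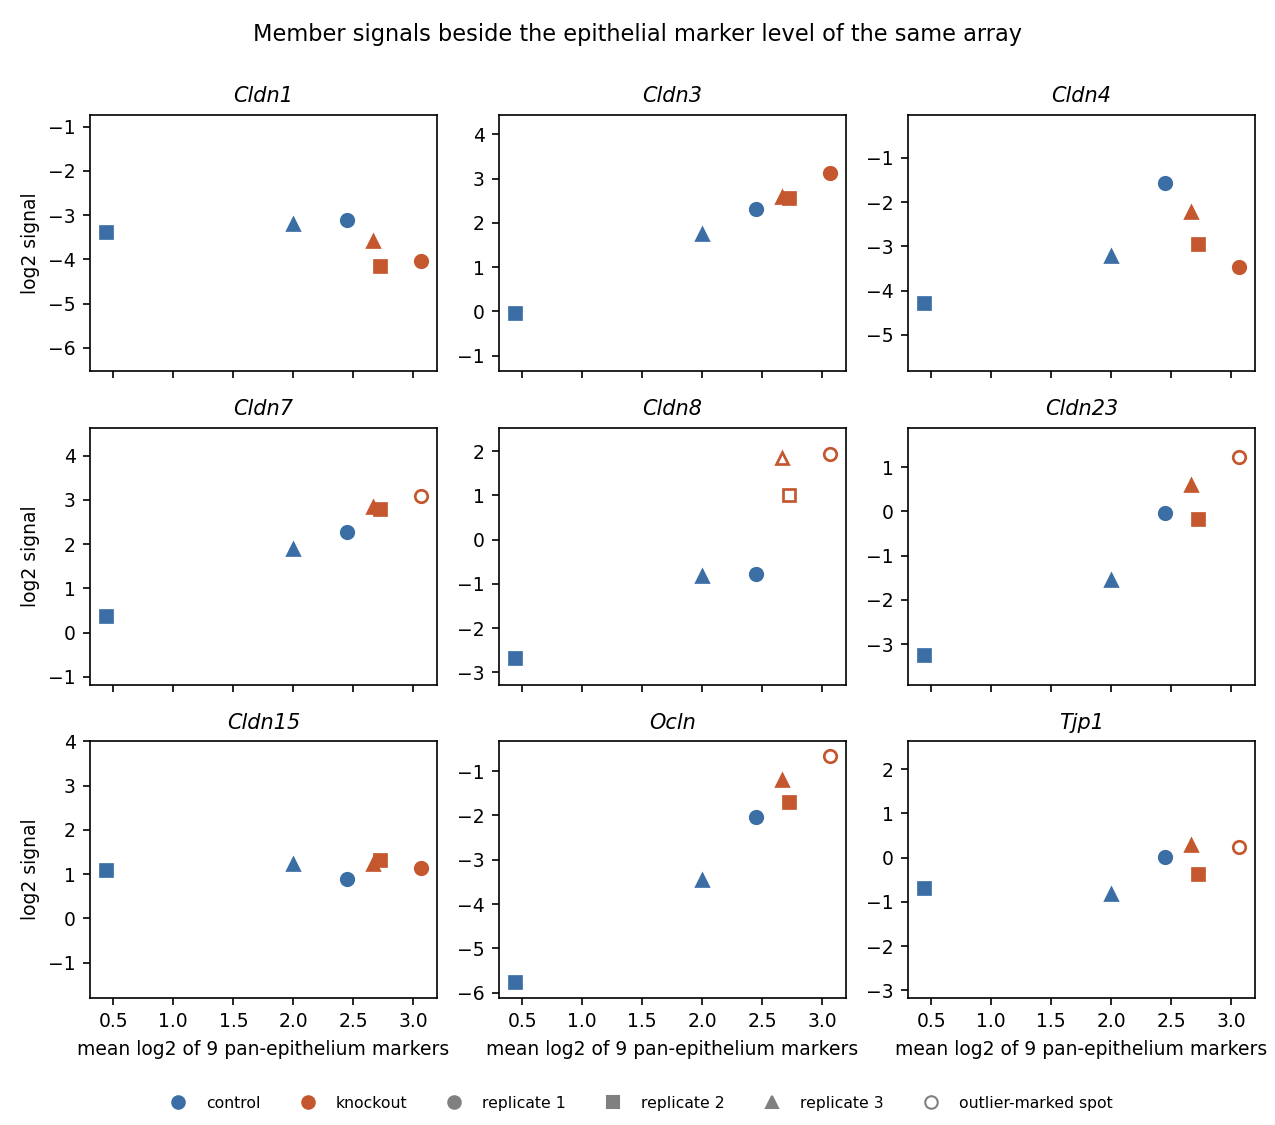
Log2 signal of each measured gene (vertical axis, 1 panel per gene, all panels spanning the same number of log2 units) against the mean log2 level of 9 epithelial markers on the same array (horizontal axis), both relative to the array's 75th percentile; blue points are controls, orange points knockouts, shapes give the animal and open points are outlier-marked spots. Cldn3 and Cldn7 lie close to a line through all 6 arrays, the 3 knockouts of Cldn8 lie above the controls nearest to them in marker level, Cldn15 stays level across the arrays, and the knockouts of Cldn1 lie below its controls although their marker level is higher.

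The rest of the junction was described from lists of its other genes. Of 16 further claudins, 15 had a probe and 10 could be tested. None passed the test, against 1.35% of named genes called higher and 2.47% called lower, 5 were above 0 and the median was -0.03. Cldn14 (1.16, adjusted p = 0.195) and Cldn22 (0.83, adjusted p = 0.148) read highest in the knockouts relative to the controls and Cldn9 (-0.73, adjusted p = 0.124) lowest. Cldn16, Cldn17, Cldn18, Cldn19 and Cldn24 were not well above background on any array.

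Among 13 other transmembrane proteins of the junction, 12 could be tested, 9 were above 0 and the median was 1.39 (0.83 without control 2). Ildr2, an angulin-family protein related to those that recruit proteins to the contacts between 3 cells, was the one gene called. It read -0.44, -0.65 and -1.03 in the controls and -1.99, -2.20 and -1.77 in the knockouts, and fell by 1.28 (SE 0.21, adjusted p = 0.0362). The call was lost when any array except control 1 was left out, with an adjusted p of 0.0588 to 0.110. Crb3, a polarity protein of the apical membrane (2.40, adjusted p = 0.0978), Marveld3, a relative of occludin (2.22, adjusted p = 0.0761), and Cxadr, the coxsackievirus and adenovirus receptor (2.11, adjusted p = 0.0846), had the largest positive differences at their brightest probes. A dimmer Marveld3 probe did pass, with a rise of 2.20 (adjusted p = 0.0417).

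Of 24 scaffold and polarity proteins, 23 could be tested, 14 were above 0, the median was 0.35 (0.14 with marked spots kept and 0.063 without control 3) and none was called at its brightest probe. Pard6b, a polarity protein, differed by 2.46 (adjusted p = 0.0913), Cgn (cingulin, which links the junction to actomyosin) by 1.72 (adjusted p = 0.120) and Tjp3 (ZO-3, a relative of Tjp1) by 1.69 (adjusted p = 0.0984). A dimmer probe of Cgn passed (1.25, adjusted p = 0.0468), and so did 1 of 5 probes of Patj, a scaffold of the polarity complex (1.78, adjusted p = 0.0357), whose brightest probe did not (1.12, adjusted p = 0.0958). Over all junction, regulator and cytokine lists, 2 of 83 brightest probes (2.41%) and 5 of 42 dimmer ones (11.9%) were called. Of all named genes at their brightest tested probe 3.82% were called, and of all tested probes 3.97%.

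The neighbouring junctions were described in the same way. All 6 desmosome genes, which anchor keratin filaments between cells, were above 0, with a median of 1.56 (1.00 without control 2). Dsg2 (2.55, adjusted p = 0.103), Dsc2 (2.43, adjusted p = 0.0938) and Dsp (1.72, adjusted p = 0.202) differed most, and none passed. Of 9 tested adherens junction genes 8 were above 0, with a median of 0.31 (0.16 without control 2) and none called. Jup (plakoglobin) differed by 1.28 (adjusted p = 0.0633), Nectin2 by 0.90 (adjusted p = 0.157) and Ctnnd1 (p120 catenin) by 0.84 (adjusted p = 0.0981).

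**Figure D4:**
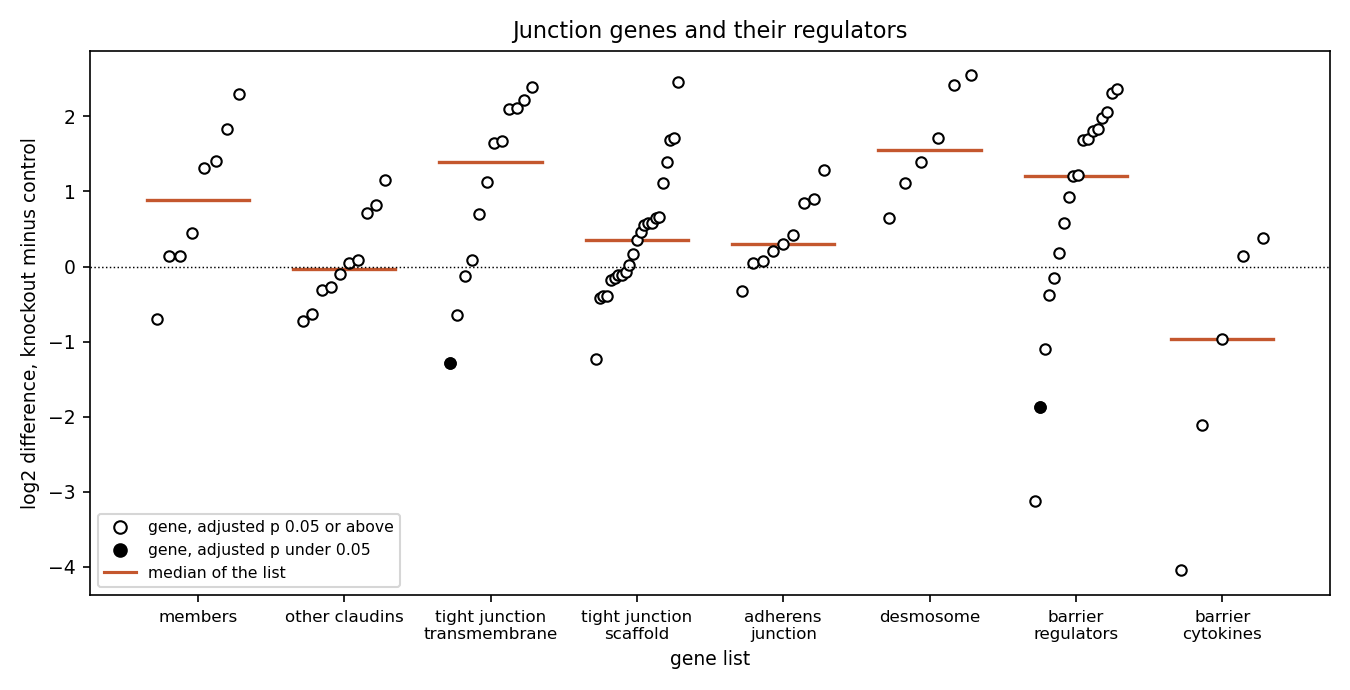
Difference between genotypes (vertical axis, knockout minus control on the log2 scale) of each tested gene, at its brightest tested probe, in the list of 10 described genes and in 7 lists of other junction genes, regulators and cytokines; orange bars are list medians and filled points passed limma's test at an adjusted p under 0.05. The 2 filled points are Ildr2 (-1.28) and Snai2 (-1.87); the desmosome and transmembrane lists have the highest medians and the further claudins centre near 0.

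Of 21 kinases, proteases, inhibitors and transcription factors that act on tight junctions or claudin genes, 18 could be tested, 13 were above 0 and the median was 1.21; at the brightest probe 1 passed. This was Snai2 (Slug), known as a repressor of epithelial genes; its binding to the members' promoters was not measured here. It read 1.06, 1.19 and 1.00 in the controls and -1.42, -0.57 and -0.36 in the knockouts, and fell by 1.87 (SE 0.29, adjusted p = 0.0326). The call was lost without control 2 (adjusted p = 0.0928), control 3 (0.0862) or knockout 3 (0.0633), with differences of -2.08 to -1.55 over the 6 fits. Its relative Snai1 had a difference of -3.13 (SE 0.61, adjusted p = 0.0535), which is uncertain in size since it was well above background on 2 of the 3 knockout arrays and control 1 was outlier-marked. Snai1 passed with marked spots kept (adjusted p = 0.0307) and with median scaling (0.0364), but not with no filter on dim probes (0.0842). With marked spots missing, its adjusted p was 0.0461 without control 1 and 0.0648, 0.0641 and 0.0955 without knockouts 1, 2 and 3. Both factors are known in stromal cells too, whose fibroblast markers read lower in the same arrays, and the part of those cells was not tested.

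Of the same 18 regulators, Hnf4a, a transcription factor of enterocyte differentiation (2.36, adjusted p = 0.120), and F2rl1, the receptor PAR2 (2.31, adjusted p = 0.137), had the largest positive differences. A dimmer probe of St14 (matriptase, a protease of the lateral membrane) passed with a rise of 1.89 (adjusted p = 0.0497), while its brighter probe did not (1.80, adjusted p = 0.104). The probes of Grhl2, an activator of epithelial junction genes, disagreed: the brighter differed by 2.07 (adjusted p = 0.0572), whereas a dimmer one fell by 1.94 (adjusted p = 0.0159), so no direction is given for this gene. Of 7 cytokines known to act on intestinal claudins 5 could be tested, 2 were above 0, the median was -0.97 and none was called. Ifng differed by 0.39 (adjusted p = 0.439) and Tnf by 0.14 (adjusted p = 0.846). Il6, well above background on 2 of the 3 knockout arrays, so that its size is uncertain, differed by -4.05 (adjusted p = 0.0671), Il1b by -2.12 (adjusted p = 0.226) and Il22 by -0.97 (adjusted p = 0.583).

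The genes whose pattern over the 6 arrays was most like that of Ocln were Heph (Pearson r = 0.9999), Lmo7 (0.9993), Cgn (0.9991), Mgst3 (0.9988) and Cdhr5 (0.9988). They were found among 17113 probes that were well above background and unmarked on every array, and 1044 of these (6.10%) had r above 0.9. The points share their arrays and scaling, and Ocln itself was at -5.77 in control 2 and between -3.45 and -0.67 on the other arrays.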

How the data were processed

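Agilent Feature Extraction 11.5.1.1 read the arrays, per the file headers; the submitters' processing notes name version 10.7. The deposited intensity of each spot is the software's processed signal on a linear scale, background-subtracted and not scaled between arrays, per the file headers. The labels name Cy3, whereas the files held red-channel columns, which were used. The series' value table holds the deposited intensities of the same arrays after rounding and averaging over spots, as a check against the scanner files showed.

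The signal was converted to log2, the array's 75th percentile over 59305 non-control spots was subtracted, and spots of 1 probe were averaged. Of 56605 probes, 33767 were named through RefSeq accessions (GRCm38.p6). A probe was tested if well above background on all 3 arrays of a group and with at least 2 usable values per group. limma 3.58.1 (lmFit, eBayes; R 4.3.3) was fitted with genotype alone, two-sided, with Benjamini-Hochberg adjustment over all tested probes. The scanner software marked no spot as saturated, and the number of arrays limits the precision. Whether bright signals below that mark were compressed was not tested. The fit was checked on simulated data.

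The brightest tested probe stood for a gene. Named were the members, Islr, junction-list genes with a called probe and otherwise the 3 with the largest differences per list, the 5 genes most like Ocln, and list markers. The members and lists were chosen with earlier results of these data known. Alternatives covered scaling, background correction, marked spots, the filter, array weights, a variance trend, the value table and leaving out arrays. Replicate numbers follow accession order and pair no animals.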

Additional observations from a re-analysis of the deposited data

How the results depend on the processing

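With array weights 4 members passed the test: Cldn3 (2.03, adjusted p = 0.0427), Cldn7 (1.93, adjusted p = 0.0499), Cldn23 (2.82, adjusted p = 0.0428) and Ocln (3.47, adjusted p = 0.0410); the cause was not tested. Cldn8 was the 1 member called with marked spots kept and with the value table (3.04, adjusted p = 0.0356). The value table carries no outlier marks, so both calls of Cldn8 rest on the same marked knockout spots. With spots kept and 1 array left out its difference was 3.34 and 2.39 without controls 1 and 2, 3.32 without control 3, and 2.85, 3.31 and 2.89 without knockouts 1, 2 and 3, and 0 to 3 members were called, 3 (Cldn8, Cldn23 and Ocln) without control 1. Scaling to the epithelial markers gave Cldn8 1.83, turned Cldn4 and Cldn15 to -1.05 each and Tjp1 to -0.62 (-0.77 with spots kept, at its brighter probe), and moved the members' median from 0.88 to -0.20; every gene is lowered by construction there. That scaling and the fits with spots kept and an array left out were chosen after seeing the data. Cldn15 was at -0.0034 with normexp background correction and at -0.076 with quantile normalization added. Cldn4 ranged from -0.49 to 0.87 with 1 array left out. Cldn1 stayed below 0 and uncalled in all 19 other settings.

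The count of called probes was 1403 in the fit reported and 2249 with median scaling, 2185 with quantile normalization, 2545 and 2768 with normexp without and with quantile normalization, 484 with no filter, 8119 with array weights, 2274 with the value table, 2677 with epithelial scaling (3081 with spots kept) and 40 to 2114 with 1 array left out. Of these calls 39.1% were higher in knockouts in the fit reported, 50.7% with normexp or with array weights and 2.58% with epithelial scaling. The junction-list genes called went from 2 to 6 with median scaling or a variance trend, 4 with quantile normalization or spots kept, 8 with either normexp setting, 0 with no filter, 42 with array weights, 5 with the value table, 8 with epithelial scaling (9 with spots kept) and 0 to 12 with 1 array left out; the cause was not tested.

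Without knockout 2 or 3 there were too few usable values to test Cldn7, Cldn23, Ocln and Tjp1. Averaging a gene's tested probes changed no member, since each has 1. No paired analysis was possible because the labels give the groups no shared replicate numbers.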

Other observations

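Other genes of the lists, chosen after their values were seen, are given as values. The vitamin D receptor Vdr, which is known to act on Cldn2, differed by 2.16 (SE 0.53, adjusted p = 0.0654) and the crypt transcription factor Klf5 by 2.02 (SE 0.62, adjusted p = 0.0987), both with outlier-marked spots kept. The adherens junction cadherin Cdh1 differed by 1.46 (SE 0.53, adjusted p = 0.139) with 5 of its 6 spots marked and kept. The repressor Zeb1, a further factor known to bind the E-box, differed by -1.09 (SE 0.30, adjusted p = 0.0802). Cldn5, the claudin of endothelium, differed by -0.64 (SE 0.23, adjusted p = 0.139) on the arrays whose endothelial markers read lower.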
